A study of Homo sapiens with 6 samples.

Results

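The interferon regulatory factors (IRFs) are a family of transcription factors that bind interferon genes, interferon-induced genes and genes of immune cell development. The members described here are IRF1, IRF2, IRF3, IRF4, IRF5, IRF7, IRF8 and IRF9, chosen by gene symbol, with earlier results of these data known. The array carried 12 probes for these 8 genes among 47218 probes in all, and 9 of the 12 probes, standing for 7 of the 8 genes, were bright enough to be tested. The cells were GEN2.2, a human leukaemia line of plasmacytoid dendritic cell type, immune cells that answer foreign nucleic acids with type I interferon. Of 6 Illumina HumanHT-12 v4 arrays, 3 held RNA of untreated cells in log-phase growth and 3 held RNA of cells exposed to 1 µM ODN2006 for 2 h. This agent is a synthetic DNA oligonucleotide with unmethylated CpG motifs that activates Toll-like receptor 9 (TLR9), and the comparison asks what differs early after its addition. All 6 samples came from this 1 line, and no control oligonucleotide was included. The labels give no time for the untreated cells, so a control matched at 2 h is not stated. They also do not say whether replicates were separate cultures, so the spread behind each p-value may be only technical.

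In plasmacytoid dendritic cells TLR9 signals through the adaptor MYD88 to kinases that phosphorylate IRF7, which is held ready in these cells and drives interferon genes once it enters the nucleus. The activity of IRF3, IRF5 and IRF7 is set largely by phosphorylation, which a transcript array does not measure, whereas IRF1 and IRF4 are known to be controlled also through their transcript levels, among others by NF-kB. IRF9 acts later, in the complex that interferon receptors activate.

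Between 13454 and 15447 probes were detected per array, detection meaning a deposited detection p under 0.01, and the median raw signal ranged from 107 to 121. Of 12 markers of plasmacytoid dendritic cells, 10 were tested and none passed, with CLEC4C, GZMB and TCF4 detected on all 6 arrays, LILRA4 on 1 ODN2006 array and PTCRA on no array (with the replicate number as a block, described below, NRP1 fell, by 0.57 on the log2 scale, adjusted p = 0.0440). Markers usually given for other cell types were detected on all 6 arrays too. These were CD14, LYZ, CD1C, CSF1R and FCGR3A of 9 monocyte and conventional dendritic cell genes on the array (CLEC9A, S100A8 and FCN1 were detected on none), CD79A, CD79B and SDC1 of 5 B and plasma cell genes (PAX5 on none), and NKG7 of 6 T and NK cell genes (CD3D, CD3E, CD8A, CD2 and GNLY on none). Of 10 tested markers of these other cell types 0 passed limma's test, and 0 had an unadjusted p under 0.05. The number of arrays limits the precision of every value below.

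Of the 7 IRF genes tested, IRF4 and IRF1 rose after ODN2006, none fell, and 5 did not pass (limma, Benjamini-Hochberg adjustment over 13816 tested probes, threshold 0.05). At an unadjusted p under 0.05 the same 2 genes were higher and 0 were lower. Among all 8706 genes tested by the same fit, 5.23% were called, 3.41% as higher and 1.81% as lower, and 15.2% had an unadjusted p under 0.05 (6.55% higher, 8.67% lower). The median log2 change was 0.22 over the 7 IRF genes and -0.05 over all genes. Both rises were modest beside others in the fit, in which IRF4 ranked 196 and IRF1 ranked 270 by log2 change among 297 risen genes with a median of 1.28. All levels below are log2 normalized intensities, and levels of different probes cannot be set against each other.

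**Figure D1:**
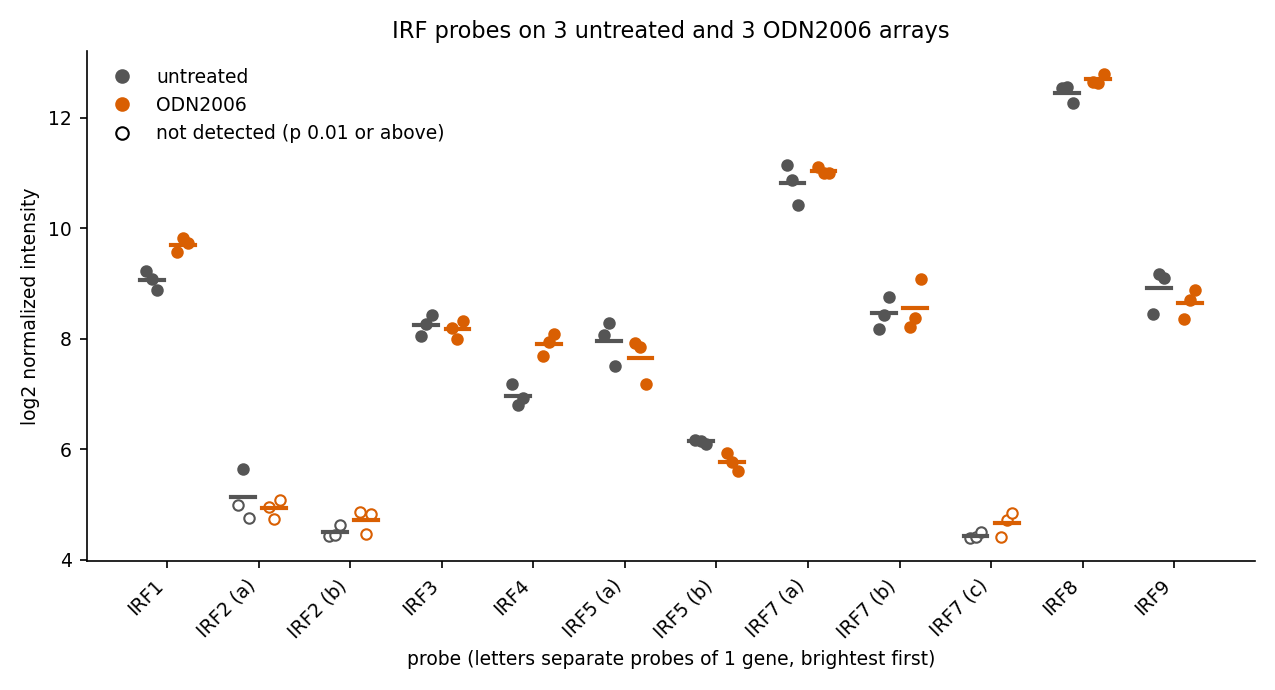
Log2 normalized intensity of the 12 IRF probes, with 1 point per array, a bar at the mean of each group of 3 arrays, and open points where the probe was not detected. The ODN2006 points of IRF1, IRF4 and, by a small margin, IRF8 lie above all untreated points, and those of the dimmer IRF5 probe lie below. Both IRF2 probes and the third IRF7 probe lie near background.

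IRF4, a factor of lymphocytes and dendritic cells that acts with the ETS factors PU.1 and SPIB, was measured by 1 probe. Its level was 7.18, 6.80 and 6.93 on the untreated arrays and 7.69, 7.95 and 8.08 on the ODN2006 arrays. All 3 ODN2006 values lay above all 3 untreated values. The rise was 1.91-fold (95% interval 1.50 to 2.44), a log2 change of 0.93 ± 0.16 (SE) from 6.97 ± 0.19 to 7.91 ± 0.20 (SD, n = 3 each), with a limma adjusted p of 0.00422. The call held under all 15 alternatives, with adjusted p between 0.00111 and 0.0337. Without background correction the log2 change was 0.57, as uncorrected background pulls ratios towards 1.

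IRF1, an activator of interferon-induced and antigen presentation genes, was likewise measured by 1 probe. Its level was 9.23, 9.08 and 8.89 on untreated and 9.57, 9.82 and 9.73 on ODN2006 arrays. The groups did not overlap here either. The rise was 1.56-fold (95% interval 1.24 to 1.96), a log2 change of 0.64 ± 0.15 (SE) from 9.07 ± 0.17 to 9.71 ± 0.13 (SD, n = 3 each), with a limma adjusted p of 0.0284. The call was lost without untreated replicate 2 (adjusted p = 0.111) or 3 (0.109), without ODN2006 replicate 2 (0.0996) or 3 (0.0933), with median scaling (0.0545) and with dim probes kept in the test (0.0803), while the log2 change stayed between 0.55 and 0.73 under all 15 alternatives.

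The start regions of IRF1 and IRF4 are shown because these were the 2 members that rose. RefSeq windows of 300 bases, from 250 before to 50 after an annotated gene start (GRCh38.p14), were searched on both strands for the NF-kB consensus, the interferon-stimulated response element ISRE (GAAA, any 2 bases, GAAA), the gamma-activated sequence GAS (TTCNNNGAA) and the TATA box (TATAAA). The IRF1 window lies at chr5:132490724-132491023 on the minus strand and the IRF4 window at chr6:391502-391801 on the plus strand. Both are written 5′ to 3′ with matches in capitals.
IRF1: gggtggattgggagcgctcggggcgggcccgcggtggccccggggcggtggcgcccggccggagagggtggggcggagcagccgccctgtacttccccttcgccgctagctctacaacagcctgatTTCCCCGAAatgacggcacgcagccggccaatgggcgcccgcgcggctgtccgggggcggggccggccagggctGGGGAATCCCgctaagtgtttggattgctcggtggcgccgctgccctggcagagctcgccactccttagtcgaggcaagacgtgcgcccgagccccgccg
IRF4: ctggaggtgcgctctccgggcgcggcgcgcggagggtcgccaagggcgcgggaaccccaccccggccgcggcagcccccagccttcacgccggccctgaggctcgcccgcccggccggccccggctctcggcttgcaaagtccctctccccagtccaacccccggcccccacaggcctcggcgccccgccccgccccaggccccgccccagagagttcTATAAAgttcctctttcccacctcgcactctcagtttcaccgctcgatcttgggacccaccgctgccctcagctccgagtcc
In IRF1 the first capitals are a GAS match and the second a match to the NF-kB consensus, palindromic enough to match on both strands, with first bases 124 and 50 bases before the gene start. In IRF4 the capitals are a TATA box whose first base lies 32 bases before the gene start. Matches to different motifs did not overlap in these windows. Among all 35116 windows given for human genes 5.91% held the NF-kB consensus, 7.66% GAS, 3.57% ISRE and 11.5% the TATA box. RefSeq gave 9 windows here for 5 of the 8 members (IRF1, IRF4, IRF5, IRF8 and IRF9). The 8 windows other than that of IRF1 held no NF-kB consensus, none of the 9 held ISRE, and IRF9 had a GAS match with its first base 63 bases before its start and 1 IRF5 window a TATA box match 188 bases before its start. A match describes letters and not a bound site.

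Neither IRF7 nor IRF3, the factors that switch on interferon genes, passed. IRF7 was measured by 2 detected probes, both annotated to transcript NM_004029. The brighter gave 11.15, 10.88 and 10.42 on untreated and 11.12, 10.997 and 10.994 on ODN2006 arrays, and the groups overlapped. Its log2 change was 0.22 ± 0.18 (SE; 95% interval -0.18 to 0.62; adjusted p = 0.700), an interval of 0.882-fold to 1.53-fold. Leaving out 1 array moved it between 0.02 (without untreated replicate 3) and 0.39 (without untreated replicate 1). The dimmer gave 8.18, 8.44 and 8.77 on untreated and 8.21, 8.37 and 9.08 on ODN2006 arrays, with a log2 change of 0.09 ± 0.23 (adjusted p = 0.941). The 2 probes ordered the untreated arrays in opposite ways, replicate 1 being the highest for the brighter and the lowest for the dimmer. The third IRF7 probe, annotated to NM_004031, was detected on no array.

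IRF3, which is phosphorylated downstream of cytosolic sensors and of TLR3 and TLR4, had 8.05, 8.27 and 8.42 on untreated and 8.20, 8.01 and 8.32 on ODN2006 arrays. The groups overlapped, and the log2 change was -0.07 ± 0.16 (SE; 95% interval -0.41 to 0.27; adjusted p = 0.928). The interval allows a change of between 0.752-fold and 1.21-fold.

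IRF5, which binds MYD88 and drives inflammatory cytokine genes, was lower on average after ODN2006 at both of its probes, and neither passed. The brighter probe, annotated to NM_001098629, had 8.07, 8.28 and 7.52 on untreated and 7.93, 7.85 and 7.18 on ODN2006 arrays, so the groups overlapped. The log2 change was -0.30 ± 0.23 (SE; adjusted p = 0.666), and it lay between -0.52 (without untreated replicate 3) and -0.06 (without ODN2006 replicate 3) when 1 array was left out. The dimmer, annotated to NM_032643, had 6.18, 6.16 and 6.10 on untreated and 5.94, 5.78 and 5.60 on ODN2006 arrays. All 3 ODN2006 values of this probe lay below the untreated ones, close to the lowest detected log2 signals of the arrays (5.18 to 5.50). Its log2 change was -0.37 ± 0.14 (95% interval -0.69 to -0.05; unadjusted p = 0.0251, adjusted p = 0.231).

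IRF8, which sets up the dendritic cell lineage together with PU.1, was measured by 1 probe and had 12.53, 12.57 and 12.27 on untreated and 12.66, 12.64 and 12.80 on ODN2006 arrays. All 3 ODN2006 values were the higher ones, by a small margin. The log2 change was 0.24 ± 0.15 (SE; 95% interval -0.08 to 0.56) and did not pass (adjusted p = 0.530). It was 0.14 without untreated replicate 3. At the probe that stands for each gene, 3 of the 7 IRF genes (IRF1, IRF4 and IRF8) thus had ODN2006 values all above the untreated ones and 0 had them all below. Among all tested genes 20.9% did not overlap, 8.48% with ODN2006 higher and 12.4% with ODN2006 lower.

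IRF9, the DNA-binding subunit of the interferon-activated complex ISGF3, had 8.46, 9.18 and 9.11 on untreated and 8.37, 8.71 and 8.88 on ODN2006 arrays. Replicate 1 was the lowest in both groups and the groups overlapped. The log2 change was -0.26 ± 0.21 (SE; 95% interval -0.72 to 0.19; adjusted p = 0.679), and it lay between -0.49 (without untreated replicate 1) and -0.12 (without ODN2006 replicate 1) when 1 array was left out.

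IRF2, a relative of IRF1 known as its antagonist, could not be measured. One of its 2 probes was detected on 1 untreated array, with 4.99, 5.65 and 4.75 on untreated and 4.96, 4.75 and 5.09 on ODN2006 arrays, and the other on no array. With dim probes kept in the test, the 2 probes had log2 changes of -0.20 (adjusted p = 0.960) and 0.22 (0.838). The first rests on untreated replicate 2, the array on which that probe was detected. A probe below detection bounds the transcript from above only and does not show that it was absent.

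**Figure D2:**
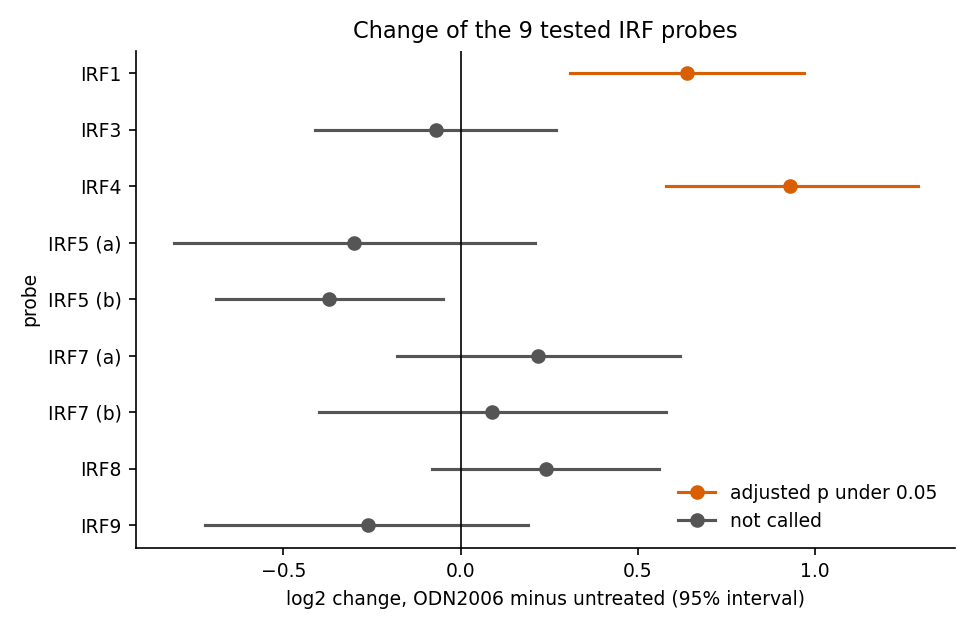
Log2 change (ODN2006 minus untreated) of the 9 tested IRF probes with the 95% interval of the limma fit on 3 arrays per group, where (a) is the brighter and (b) the dimmer probe of a gene. IRF1 (0.64) and IRF4 (0.93) were called, and of the other intervals only that of the dimmer IRF5 probe (-0.69 to -0.05) lay on one side of 0 before adjustment.

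Arrays with the same replicate number moved together over the tested probes, so the members were also read pair by pair. The differences of IRF4 were 0.51, 1.15 and 1.15 in pairs 1, 2 and 3, and those of IRF1 were 0.34, 0.74 and 0.85. Both genes thus had their smallest rise in pair 1, although over all 297 risen genes the median difference was 1.22, 1.15 and 1.39 in the 3 pairs. IRF5 was lower in every pair at both probes, by -0.14, -0.43 and -0.33 at the brighter and by -0.24, -0.38 and -0.49 at the dimmer. IRF9 was lower by -0.09, -0.47 and -0.23. IRF8 was higher by 0.12, 0.07 and 0.52, pair 3 giving most of its mean change. Differences of 6 of the 9 tested probes had the same sign in all 3 pairs, and those of IRF3 and of both IRF7 probes did not, while 42.4% of all tested probes had one sign in all 3 pairs.

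With the replicate number as a block in the fit, the standard error of the brighter IRF5 probe went from 0.23 to 0.12 and that of IRF9 from 0.21 to 0.12. IRF1 (adjusted p = 0.0167) and IRF4 (0.00456) were the only IRF genes called in the blocked fit, in which 8.76% of all genes were called. The dimmer IRF5 probe reached an adjusted p of 0.0881, the brighter 0.166 and IRF9 0.246.

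**Figure D3:**
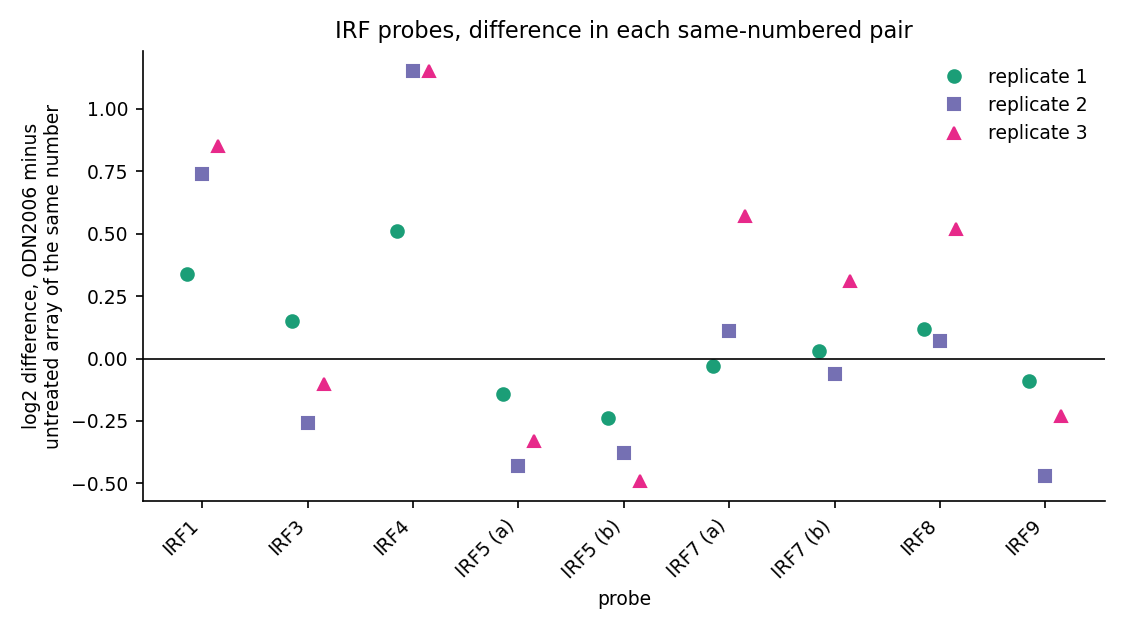
Log2 difference between the ODN2006 and the untreated array of the same replicate number for the 9 tested IRF probes, with 1 symbol per pair. IRF1, IRF4 and IRF8 lie above 0 in all 3 pairs (0.34 to 0.85, 0.51 to 1.15 and 0.07 to 0.52). Both IRF5 probes and IRF9 lie below 0 in all 3.

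Genes whose profile over the 6 arrays lay closest to those of the 2 risen members were found by the root mean square distance between profiles, each taken relative to its own untreated mean, over 8699 genes. PATL1, which takes part in mRNA decapping, lay closest to IRF1 (distance 0.060; log2 change 0.64 ± 0.14 SE), followed by VEGFA, a vascular growth factor (0.074; 0.71 ± 0.15), and VMO1 (0.082; 0.58 ± 0.16, which did not pass, adjusted p = 0.0741). Closest to IRF4 were SEMA7A, a membrane-bound semaphorin (0.093; 0.96 ± 0.18), ZFP36L1, an mRNA decay factor (0.118; 1.04 ± 0.16), and the immediate early gene IER2 (0.126; 0.95 ± 0.14).

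Upstream of the IRFs, 2 of 17 tested genes of the IRF activation list rose and none fell, with a median log2 change of 0.00. Over all tested genes the shares were 3.41% risen and 1.81% fallen. Of the 14 genes of the list detected on all 6 arrays, the same 2 rose, beside 2.79% of all genes so detected (median of the list -0.01). TICAM1 rose 3.24-fold (log2 change 1.70 ± 0.15 SE, adjusted p = 1.32e-05, and 1.15 at its other probe) and IRAK2 2.42-fold (1.27 ± 0.16, 0.000283). TICAM1 encodes TRIF, the adaptor of TLR3 and TLR4 towards IRF3 and not an adaptor of TLR9, and IRAK2 is a kinase downstream of MYD88. Of the other kinase genes, TBK1 and IKBKB had changes of 0.00, CHUK of -0.01, IRAK1 of -0.36 (all ODN2006 values lower) and IKBKE of 0.43 (all higher, detected on 1 untreated array). SLC15A4 and TASL, which link endosomal receptors to IRF5, had -0.23 and 0.41 (TASL detected on 2 untreated arrays), and none of these 7 genes passed. MYD88 had -0.47 ± 0.14 and did not pass (adjusted p = 0.0929), while with the replicate block it fell (0.0320).

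Of the 5 NF-kB subunit genes, 4 were detected on all 6 arrays, and these 4 had a median log2 change of 1.23. Among them 3 rose, beside 2.79% of the 7964 genes detected on all 6 arrays. NFKB2 rose by 1.93 ± 0.20 (SE), RELB by 1.50 ± 0.19 and NFKB1 by 0.96 ± 0.16, and RELA had 0.24 ± 0.15 and did not pass (adjusted p = 0.544). REL, called with 0.98 ± 0.24, was detected on 1 untreated array and entered the test through its detection after ODN2006, and 8 of 14 alternatives ended its call (adjusted p 0.0692 to 0.295), among them leaving out any 1 array other than untreated replicate 3. Among partners and regulators of the IRFs none of 9 tested genes passed at the probe that stands for the gene (median 0.09), and at an unadjusted p under 0.05 there was 1 higher and 1 lower, beside the 15.2% of all genes given above. SPI1, which encodes PU.1, a DNA-binding partner of IRF4 and IRF8, had 0.19 ± 0.22 (adjusted p = 0.822) and UBE3C, a ubiquitin ligase, 0.20 ± 0.14 (0.623). IRF2BP2, a co-repressor that binds IRF2, had 0.45 ± 0.14 at its brighter probe (0.107, and 0.0471 with the replicate block) and 0.54 ± 0.14 at its dimmer one (0.0452). SPIB, another partner of IRF4, had 0.32 ± 0.17 and did not pass (0.412).

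Downstream, IFNB1, the interferon beta gene, was undetected when untreated and at least 110-fold higher after ODN2006 on the intensity scale used here. This bound depends on the scale. The fitted log2 change was 7.65, against 6.26 with an offset of 50 and 5.17 without background correction. IFNB1 entered the test through its detection after ODN2006. The other 19 of 20 interferon genes on the array were not tested, and of these only IFNW1 was detected at all, with no probe on more than 1 ODN2006 array. Among all tested genes 3.41% rose and 1.81% fell. Of 23 tested genes with ISRE sites, which ISGF3 and other IRFs bind, 3 rose and none fell (median -0.12). The risers were IFIT2 (1.32 ± 0.17 SE), OASL (1.22 ± 0.19) and ISG20 (0.84 ± 0.15), all antiviral genes. IFIH1, an RNA sensor gene, had 0.67 ± 0.23 and did not pass (adjusted p = 0.153), while with the replicate block it did (0.0186). IFIT1, another antiviral gene, had -0.61 ± 0.23 with all ODN2006 values below the untreated ones and did not pass (0.209).

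Of the IRF1 targets, 8 were detected on all 6 arrays, of which 0 rose and 0 fell (median 0.01). Of all genes so detected 2.79% rose. The 2 called genes of the list were SOCS1, an inhibitor of cytokine signalling (1.37 ± 0.28 SE), and GBP2, a GTPase of host defence (0.81 ± 0.17). Both were detected on 1 untreated array only and entered the test through their detection after ODN2006, and 5 of 14 alternatives ended the call of each (adjusted p 0.0573 to 0.173 for SOCS1 and 0.0515 to 0.173 for GBP2). Among these were, for SOCS1, leaving out untreated replicate 2 (0.0628) or 3 (0.0573) or ODN2006 replicate 1 (0.0695), and for GBP2, untreated replicate 3 (0.0748) or ODN2006 replicate 3 (0.0774). Without background correction neither was called, and their log2 changes were 0.47 and 0.24. The antigen presentation genes of the list, TAP1 (0.08), PSMB9 (0.03), PSMB8 (-0.05), PSMB10 (-0.02) and TAP2 (-0.18, and -0.43 at its other probe, adjusted p = 0.357), did not pass. TAPBP had -0.10 at its brighter probe, which did not pass, and 0.81 at its dimmer one, which did (adjusted p = 0.0201). Of 6 tested targets of IRF4 or IRF8, BCL6, a transcriptional repressor, rose 2.04-fold (1.03 ± 0.14, adjusted p = 0.0008), MYC fell by 0.81 on the log2 scale (SE 0.16, adjusted p = 0.00835), and 4 did not pass (median -0.04). Over all tested genes the shares were 3.41% risen and 1.81% fallen. PRDM1, another repressor among these targets, had 0.65 ± 0.20 and did not pass (adjusted p = 0.0992), while with the replicate block it did (0.00739). The list does not say in which direction IRF4 or IRF8 acts on each gene.

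**Figure D4:**
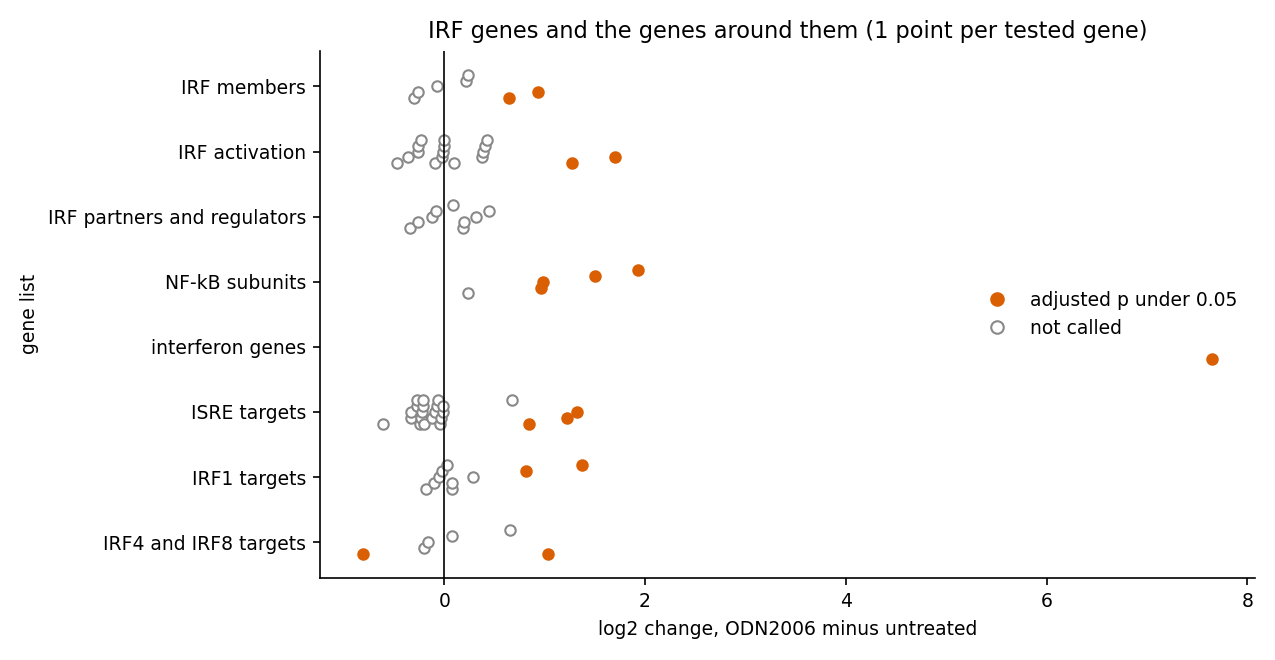
Log2 change (ODN2006 minus untreated) of each tested gene in the IRF family and in the lists around it, with 1 point per gene and called genes filled. Among the NF-kB subunits 4 of 5 points are filled, 1 of them (REL) detected on 1 untreated array, and among the IRF genes 2 of 7, and the point at the far right is IFNB1, whose fitted change rests on an untreated level below detection.

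**Figure D5:**
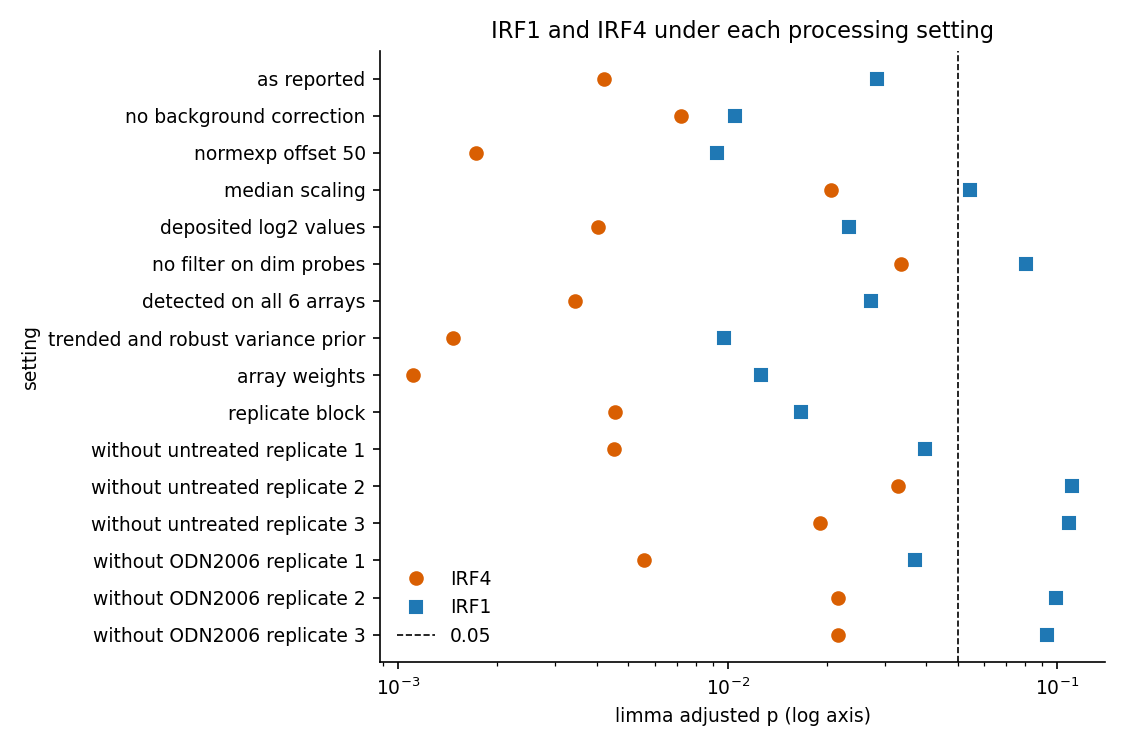
Limma adjusted p (log axis) of IRF1 and IRF4 as reported and under 15 alternatives, with the threshold of 0.05 as a dashed line. IRF4 lies below 0.05 in every setting shown (highest 0.0337), and IRF1 lies above it in 6 of the 15 alternatives (highest 0.111).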

How the data were processed

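Per the labels' protocols, total RNA was column-purified, amplified with an Illumina TotalPrep kit and hybridised. The raw probe intensity deposited by the authors is non-normalized and on a linear scale, with a detection p-value per probe and array beside it, per the file headers. For the deposited log2 values the submitters' processing notes name limma, and the steps are not given in the sources used here. Their medians (4.67 untreated, 4.59 ODN2006) and their median difference of -0.45 over probes detected on no array (0.00 after joint normalization) differ between groups, so they served only as an alternative.

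Intensities were corrected by normexp from the detection p-values, given an offset of 16 and quantile-normalized together (neqc, limma 3.58.1, R 4.3.3). Tests covered probes with a detection p under 0.01 on every array of either group. Symbols came from the platform annotation, updated by gene ID from RefSeq (GRCh38.p14). A gene is represented by its brightest tested probe. Differences were tested with lmFit and eBayes, two-sided, without covariates. On simulated data with known changes and no pairing of arrays, the fit was checked for its estimates of change only. That check does not bear on its p-values. An "at least" fold divides the bright group's mean by a floor, which on each dim array is the lowest detected signal or, if higher, the probe's value.

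Same-numbered arrays (numbers from the sample titles) had deviations from group means that correlated at 0.41, 0.35 and 0.46, so by the data the numbers appear to pair samples, and the fit with the number as a block was run beside the unblocked one. The members and lists were chosen with earlier results of these data known. Named were all IRF members, up to 4 called genes per list with the largest change (otherwise the 2 brightest), and the 3 genes nearest in profile to each called member. Any other gene was chosen with its values in view. Alternatives were no background correction, an offset of 50, median scaling, the deposited log2 values, and no and stricter filters. Others were a trended and robust prior, array weights, the replicate block and leaving out each array, which makes the 15 run for IRF1 and IRF4. Probe means were an addition for the counts of IRF genes and for IRF5 and IRF7. A slide block was not run, because the files used here give no slide.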

Additional observations from a re-analysis of the deposited data

How the results depend on the processing

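IRF4 kept its call in each of 15 alternatives (log2 change 0.57 to 1.04). The count of risen IRF genes was 1 in place of 2 with median scaling and with dim probes kept in the test, and ranged from 1 to 2 with 1 array left out, the lost call being that of IRF1, and no IRF gene fell in any setting. By construction a fit with an array left out has fewer samples, and one with dim probes kept has more tests. IRF1 kept its call without untreated replicate 1 (limma adjusted p = 0.0399) and without ODN2006 replicate 1 (0.0372). The cause of the lost calls was not tested in any of these settings. Changes near 0 turned direction: IRF3 had 0.02 without untreated replicate 3 and 0.01 without ODN2006 replicate 2, and the dimmer IRF7 probe -0.05 without untreated replicate 1 and -0.17 without ODN2006 replicate 3 (range with 1 array left out -0.17 to 0.26). SPI1 had -0.08 without ODN2006 replicate 3 (range -0.08 to 0.34), SDC1 0.00 and 0.04 without untreated replicates 1 and 2 (range -0.18 to 0.04), and TCF4 -0.04 with array weights, -0.12 without untreated replicate 3 and -0.02 without ODN2006 replicate 2 (range -0.12 to 0.28). Over all genes, falls numbered 104 with median scaling, 58 with dim probes kept and 358 with the replicate block, in place of 158, and 51 to 116 with 1 array left out. The replicate block changed no call of an IRF gene. Per array 28.5% to 32.7% of probes were detected, and IRF2 had no probe that could be tested. Whether undetected probes had weak signal or stood for unexpressed genes was not tested.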

Other observations

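The 8 IRF genes lie on 8 chromosomes. Of the 16 genes that flank them in the RefSeq order of genes annotated as protein-coding (GRCh38.p14), 9 were tested and 0 passed limma's test (2 were lower at an unadjusted p under 0.05, as were 8.67% of all tested genes), with log2 changes between -0.41 and 0.19. The neighbours of IRF4, DUSP22 and EXOC2, had -0.03 ± 0.14 (SE) and 0.19 ± 0.15, and SLC22A5 beside IRF1 had -0.41 ± 0.16 (adjusted p = 0.234).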
